A study of Caenorhabditis elegans with 36 samples.

Results

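Whether Caenorhabditis elegans lacking MUT-16 responded differently to elevated temperature than wild-type animals was examined gene by gene in the mRNA-seq libraries. For every gene, the heat response of wild-type (25°C against 20°C) was subtracted from the heat response of mut-16 mutants, both on a log2 scale. The result is called the interaction here. A positive interaction means a more positive heat response in mut-16, and a negative one a less positive or more negative response. All 12 mRNA-seq libraries and all 45904 gene names in the deposited files entered this comparison. Of these, 14623 genes had enough reads to be tested. The 12 libraries are part of a series of 36 samples, of which 24 were analysed, the other 12 being small RNA-seq libraries of the same groups.

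MUT-16 is the scaffold on which the Mutator complex assembles into perinuclear foci of germ cells, next to P granules. There, RNA-dependent RNA polymerases copy targeted transcripts into secondary small interfering RNAs (22G-siRNAs), which are loaded into worm-specific Argonaute proteins and silence genes and transposons. Hermaphrodites first make sperm as larvae and then switch to making oocytes, and mut-16 mutants become sterile when raised at elevated temperature.

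The mutants were NL1810 animals, which carry mut-16(pk710) on chromosome I, and the wild-type animals were the N2 strain. Both genotypes were grown at 25°C and at 20°C, which gave 4 groups with 3 libraries each, and each sample held 8000 whole Day 1 adults. Larvae synchronized at the first stage were grown on enriched peptone plates and collected after about 48 h at 25°C and about 68 h at 20°C. Temperature and culture time therefore cannot be told apart, and with 1 mutant strain, neither can the allele and other differences between the strains. In RNA from whole animals, fewer cells of a type and less RNA per cell cannot be told apart either. The study's methods call the libraries of a group biological replicates, while the labels do not say whether they came from separate cultures.

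The targeted gene was lower in every mutant library than in every wild-type library. mut-16 (B0379.3, chromosome I) had 49.4, 40.6 and 42.3 reads per 1000000 library reads (RPM) in mut-16 at 25°C, 64.3, 51.7 and 40.8 RPM in mut-16 at 20°C, 127, 109 and 105 RPM in wild-type at 25°C, and 127, 117 and 118.5 RPM in wild-type at 20°C. Its own interaction was -0.46 ± 0.22 (log2, SE), which did not pass the test (edgeR, adjusted p = 0.0948). Library totals ran from 15432009 to 34195602 reads. Libraries 2 and 3 of mut-16 at 25°C were closer to each other than any other pair of replicates, with a chi-square of 1.65 per gene, against 28.6 and 29.3 between each of them and library 1 and 3.15 to 46.1 in the other groups. They still differed by more than sampling noise and were kept as separate samples. With their counts summed into 1 library, a fit added after these values were seen, 1065 genes had a higher and 2370 a lower heat response in mut-16.

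With the 12 libraries as deposited, 1418 genes had a higher heat response in mut-16 (9.7% of those tested) and 3129 a lower one (21.4%) at a Benjamini-Hochberg adjusted p under 0.05 in edgeR's quasi-likelihood test. The count of higher genes was 2312 without library 3 of mut-16 at 20°C and 878 without library 1 of wild-type at 20°C. Libraries 3 of mut-16 and of wild-type at 20°C are the only mRNA-seq libraries whose titles lack an RE mark, which the labels do not explain. With this mark as a covariate, 1597 genes were higher and 3480 lower. The split between the directions rested on the scaling of the libraries. The scaling used, the trimmed mean of M values (TMM), gave factors of 1.11 to 1.15 in mut-16 at 25°C, 0.898 to 0.932 in mut-16 at 20°C, 0.961 to 1.01 in wild-type at 25°C and 0.960 to 0.995 in wild-type at 20°C. The median interaction of all genes was -0.10 with it and 0.19 with library totals as the scaling, under which 3155 genes were higher (21.6%) and 888 lower (6.07%). Genes called higher thus made up 31.2% of all calls with TMM, 78.0% with library totals and 68.0% among the 11009 genes with at least 10 counts in every library (2242 higher, 1055 lower). All 1418 genes called higher with TMM were also called higher with library totals. All 888 genes called lower with library totals were also called lower with TMM. Changes of gene groups are therefore given below relative to the median of all genes, with counts under both scalings.

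In both directions, the median heat response was larger in size in mut-16 than in wild-type. Genes with a higher heat response in mut-16 had a median heat response of 0.82 in mut-16 and -0.06 in wild-type (log2). Of the 1418, 1132 had their highest mean TMM-scaled count in mut-16 at 25°C, as did 6912 of all 14623 genes tested. Genes with a lower heat response had a median heat response of -0.49 in mut-16 and 0.05 in wild-type. Of the 3129, 2438 had their lowest mean TMM-scaled count in mut-16 at 25°C, against 5357 of all. A further 374 of the 3129 had their highest there, while only 13 of the 1418 higher genes had their lowest there. In size, the response was the larger one in mut-16 for 81.2% of higher and 79.2% of lower genes, against 69.3% of all genes tested. Most differences were small. The absolute interaction was at least 1 (log2) for 566 higher and 569 lower genes, and at least 2 for 121 higher and 311 lower genes.

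**Figure D1:**
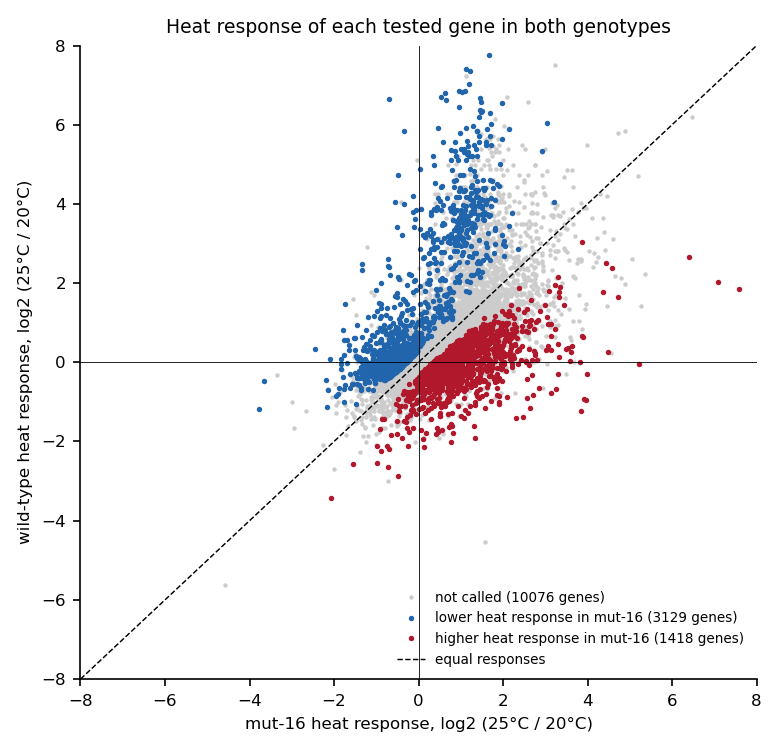
Heat response of each tested gene in mut-16 (x axis) and wild-type (y axis), as log2 of 25°C over 20°C, with 3 genes beyond the axis limit of 8 not drawn. Red points are the 1418 genes with a higher and blue points the 3129 genes with a lower heat response in mut-16, and blue points high above the diagonal are genes that rose far more in wild-type.

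The 10 largest higher responses were taken among genes with a mean of at least 10 RPM in some group that passed the test in every fit without 1 library. Of these 10 genes, 8 lie on chromosome X, and all had fewer small RNAs in the mutant at 20°C. F47B7.6 (chromosome X, 3769729-3770643 in WBcel235) had 16.9, 19.5 and 18.6 RPM in mut-16 at 25°C and 0.383, 0.327 and 0.462 RPM in mut-16 at 20°C, against 0.323, 0.140 and 0.0374 RPM in wild-type at 25°C and 0.150, 0.215 and 0.124 RPM in wild-type at 20°C. Only the mut-16 libraries at 25°C stood clear of the rest, and the interaction of F47B7.6 was 5.26 ± 1.13 (edgeR, adjusted p = 0.000325). R09H3.3, on the same chromosome, had 55.8, 66.5 and 64.8 RPM in mut-16 at 25°C and 4.45, 3.46 and 2.46 RPM in mut-16 at 20°C, while the wild-type libraries were between 0.165 and 0.415 RPM at both temperatures (3.20 ± 0.83, adjusted p = 0.00231). F41G4.7, likewise on X, showed the same order, with 62.0, 65.0 and 65.7 RPM in mut-16 at 25°C, 10.8, 9.89 and 9.42 RPM in mut-16 at 20°C, and 0.460 to 0.526 RPM in the wild-type libraries (2.42 ± 0.46). These 3 genes were higher in the mutant than in N2 at both temperatures in every library, and the distance between the genotypes was greater at 25°C.

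Other genes of this set were not far from wild-type at 20°C. glit-1, which encodes a neuroligin-like protein related to fly gliotactin, had 149.8, 152.2 and 154.5 RPM in mut-16 at 25°C and 16.99, 17.7 and 19.8 RPM in mut-16 at 20°C, against 15.3, 15.2 and 14.7 RPM in wild-type at 25°C and 12.2, 13.03 and 14.1 RPM in wild-type at 20°C. Its interaction was 2.57 ± 0.36, with an edgeR adjusted p of 1.18e-08. pdfr-1, the receptor for the PDF neuropeptides, had 17.9, 15.8 and 16.3 RPM in mut-16 at 25°C and 2.49, 2.99 and 2.93 RPM in mut-16 at 20°C, against 5.76 to 6.99 RPM in wild-type at 25°C and 5.06 to 6.52 RPM in wild-type at 20°C (2.15 ± 0.37). It was thus below wild-type at 20°C and above it at 25°C, with no overlap of the groups at either temperature. K02E7.6, a pseudogene on chromosome II, rose in both genotypes, with means of 10.7 RPM in mut-16 at 25°C and 0.395 RPM in mut-16 at 20°C, against 2.05 RPM in wild-type at 25°C and 0.352 RPM in wild-type at 20°C (1.92 ± 0.53). The remaining 4 genes of the top 10 (Y73B3A.1, AC8.1, Y73B3A.4 and T08D2.8) lay together at the left end of X and are described with that region.

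**Figure D2:**
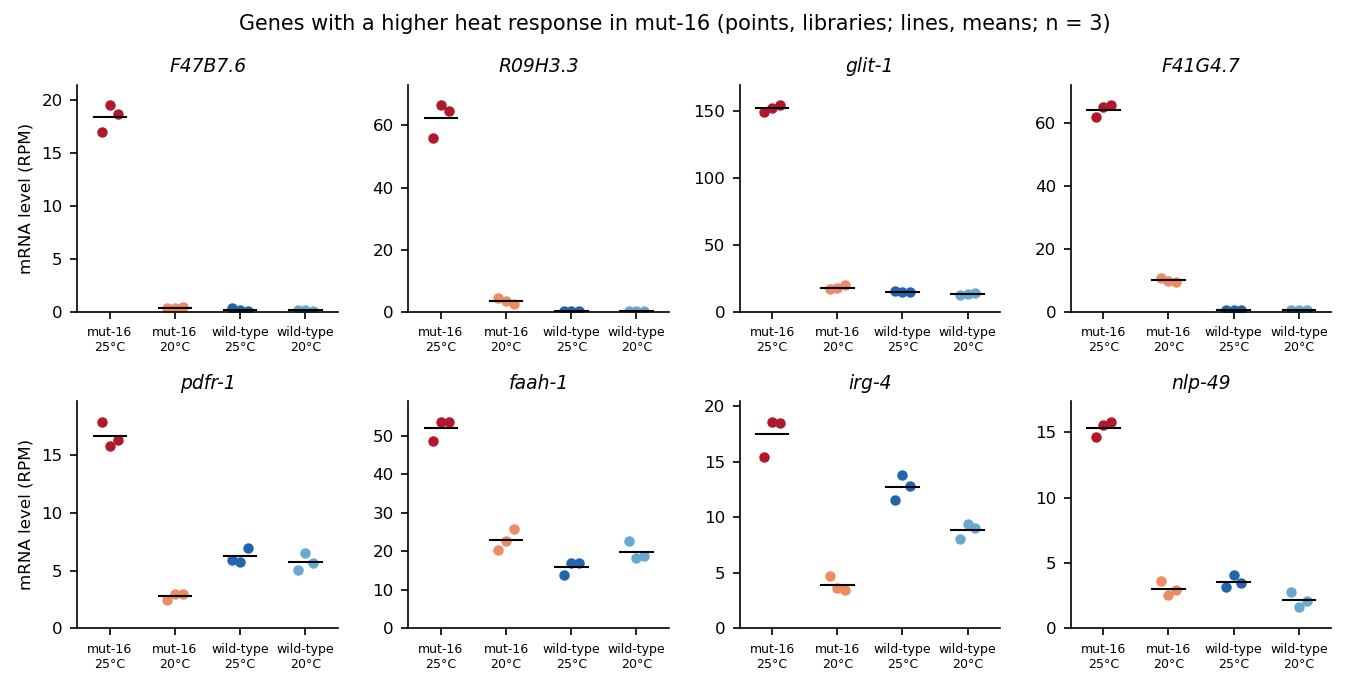
mRNA level in RPM (linear axes from 0) of 8 genes with a higher heat response in mut-16, with 1 point per library, a line at each group mean and 3 libraries per group. In each panel the 3 libraries of mut-16 at 25°C are the highest, and for pdfr-1 and irg-4 the libraries of mut-16 at 20°C are the lowest.

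The small RNA-seq libraries of the same 4 groups gave a separate reading of these genes. At F47B7.6, small RNAs averaged 11.8 ± 2.95 RPM in mut-16 at 25°C and 3.03 ± 1.71 RPM in mut-16 at 20°C, against 928 ± 244 RPM in wild-type at 25°C and 353 ± 53.3 RPM in wild-type at 20°C (SD, n = 3 each). glit-1 had 44.3 ± 1.68 RPM of small RNAs in mut-16 at 25°C and 3.35 ± 1.25 RPM in mut-16 at 20°C, against 576 ± 70.1 RPM in wild-type at 25°C and 296 ± 16.6 RPM in wild-type at 20°C. All of the top 10 higher genes had fewer small RNAs in the mutant than in N2 at 20°C (edgeR, adjusted p under 0.05 for each), with log2 differences from -6.78 at F47B7.6 to -1.13 at Y73B3A.1.

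Over all called genes, the 2 directions differed in their small RNAs. Of the 1418 higher genes, 1042 were also tested in small RNA-seq, and 761 of them (73.03%) had fewer small RNAs in the mutant than in N2 at 20°C, where 42.5% of the 12421 genes tested in both assays did. Only 55 of the 1042 (5.28%) had more, against 39.4% of all. Of the 3057 lower genes tested in both assays, 2283 (74.7%, against 39.4% of all) had more small RNAs in mut-16 at 20°C and 497 (16.3%, against 42.5%) had fewer. These values are relative to the other small RNAs of a library. More small RNAs of a gene and a larger share of a smaller total therefore cannot be told apart. The median difference at 20°C was -2.02 for higher genes, 0.77 for lower genes and -0.11 for all genes (log2). The shares at 25°C were close to these, with 69.5% of higher genes having fewer and 72.8% of lower genes having more small RNAs in mut-16. Read from the small RNAs, 14.4% of the 5282 genes with fewer small RNAs in mut-16 at 20°C had a higher heat response and 9.41% a lower one, whereas 1.12% of the 4899 genes with more small RNAs had a higher and 46.6% a lower heat response.

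The heat response of the small RNAs was compared in the same way. Among higher genes, 7.77% had a lower and 10.1% a higher heat response of their small RNAs in mut-16, against 14.2% and 6.27% of all genes tested in both assays. Among lower genes, 18.2% had a lower and 5.53% a higher one.

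The higher genes were unevenly spread over the genome. On chromosome X, 309 of 2023 tested genes (15.3%) had a higher and 76 (3.76%) a lower heat response in mut-16, with a median interaction of 0.21. On chromosome V, 12.8% were higher and 16.98% lower. On chromosomes I, II, III and IV, 5.68% to 9.67% were higher and 23.3% to 28.8% lower, with medians from -0.27 to -0.18. With library totals as the scaling, X still had the highest share of higher genes (36.9%) and the lowest share of lower genes (1.24%) of the 6 nuclear chromosomes. Of the 12 mitochondrial genes tested, 3 were higher.

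The left end of X held the densest group. In windows of 250000 bases with at least 10 tested genes, the first window of X had the highest share of higher genes, 15 of 33 (45.5%), and the next was 36.8% on chromosome V. These windows were examined after the values were known, so the share is a description with no test. The 33 genes lie between 261 and 252767 on X (WBcel235), 23 of them were lower in the mutant than in N2 at 20°C, and all 15 higher genes were among these 23. Their median difference between the genotypes at 20°C was -2.21 (log2), against 0.11 for all genes. The group was thus lower in the mutant at 20°C, and part of that difference was missing at 25°C.

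Y73B3A.1 had 42.3, 37.03 and 39.04 RPM in mut-16 at 25°C and 5.14, 4.68 and 5.03 RPM in mut-16 at 20°C, against 78.9, 76.9 and 72.9 RPM in wild-type at 25°C and 66.5, 67.7 and 82.5 RPM in wild-type at 20°C. Wild-type did not separate by temperature, and mut-16 did (2.62 ± 0.39, edgeR adjusted p = 4.79e-08). Y73B3A.4 averaged 8.66 RPM in mut-16 at 25°C and 1.80 RPM in mut-16 at 20°C, against 25.3 RPM in wild-type at 25°C and 25.8 RPM in wild-type at 20°C (2.00 ± 0.35). T08D2.8 averaged 2.41, 0.437, 12.1 and 10.4 RPM in the same order of groups (1.85 ± 0.57). In 12 of the 15 genes the level in mut-16 at 25°C remained below that of wild-type at 25°C. The pseudogene AC8.1 was one of the other 3, with 14.9, 14.7 and 15.9 RPM in mut-16 at 25°C and 0.851, 0.416 and 0.493 RPM in mut-16 at 20°C, against 7.55, 8.03 and 6.77 RPM in wild-type at 25°C and 1.46, 3.74 and 1.46 RPM in wild-type at 20°C (2.59 ± 0.64). It overlaps AC8.2 on the other strand, and whether the counting used strand is not given in the sources used here.

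Small RNAs were also counted at these genes. At Y73B3A.1 they averaged 408 ± 21.6 RPM in mut-16 at 25°C and 146 ± 8.79 RPM in mut-16 at 20°C, against 302 ± 42.0 RPM in wild-type at 25°C and 343 ± 15.9 RPM in wild-type at 20°C (SD, n = 3 each). At AC8.1 they averaged 33.7 RPM in mut-16 at 25°C and 1.98 RPM in mut-16 at 20°C, against 28.6 RPM in wild-type at 25°C and 22.6 RPM in wild-type at 20°C. Outside the region, eri-7, which encodes a helicase of the ERGO-1 small RNA pathway and lies on chromosome I, showed the same order of groups. This gene had 36.5, 37.6 and 34.975 RPM in mut-16 at 25°C and 13.2, 9.30 and 8.05 RPM in mut-16 at 20°C, against 74.4, 74.5 and 76.0 RPM in wild-type at 25°C and 65.0, 83.4 and 58.0 RPM in wild-type at 20°C (1.42 ± 0.33). eri-7 was picked after its values were seen.

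**Figure D3:**
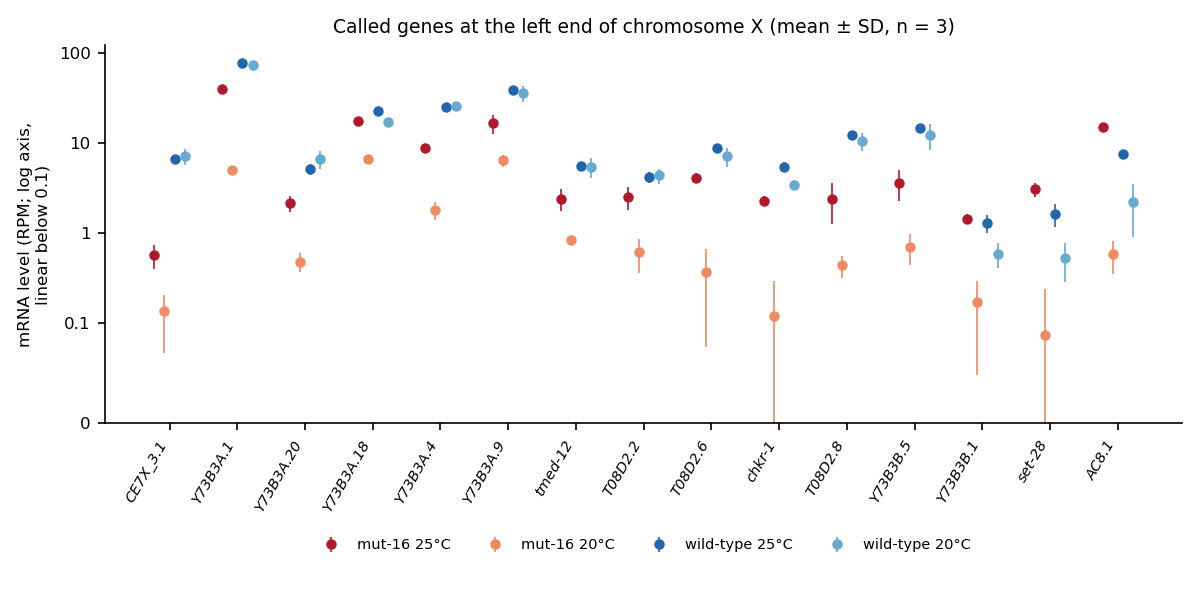
Mean mRNA level ± SD in RPM (log axis, linear below 0.1, bars cut at 0; n = 3 libraries per group) of the 15 called genes at the left end of chromosome X, in order along the chromosome. In each gene mut-16 at 20°C is the lowest group, and in 12 of the 15 mut-16 at 25°C lies between mut-16 at 20°C and wild-type at 25°C.

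Several lists of genes used in the soma had more higher than lower calls, among them peptide, neuronal and muscle genes. With TMM, 27.4%, 25.6% and 23.7% of these lists were called higher, against 9.7% of all genes. Lower calls made up 0.885%, 4.65% and 2.63%, against 21.4% of all genes. Of 113 tested genes for neuropeptides and insulin-like peptides, 31 (27.4%) had a higher heat response in mut-16 and 1 a lower one, and the median interaction was 0.87 above that of all genes. Their summed level was 899, 991 and 977 RPM in mut-16 at 25°C and 487, 531 and 727 RPM in mut-16 at 20°C, against 479, 546 and 536 RPM in wild-type at 25°C and 616, 484 and 482 RPM in wild-type at 20°C. The mut-16 libraries at 25°C were the highest, and the other groups overlapped. nlp-49, a neuropeptide precursor gene, had 14.6, 15.6 and 15.8 RPM in mut-16 at 25°C and 3.59, 2.57 and 2.97 RPM in mut-16 at 20°C, against 3.18, 4.07 and 3.48 RPM in wild-type at 25°C and 2.76, 1.62 and 2.11 RPM in wild-type at 20°C (1.31 ± 0.32, edgeR adjusted p = 0.00147). flp-9, an FMRFamide-like peptide gene, had an interaction of 1.18 ± 0.31. With library totals, 46 were higher and 0 lower (1 lower at an unadjusted p under 0.05 with TMM, 0 with DESeq2). The 31 higher calls were 48 without library 3 of mut-16 at 20°C and 18 without library 1 of wild-type at 20°C.

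Among 43 tested neuronal genes, 11 were higher and 2 lower, with a median 0.44 above that of all genes. faah-1, the fatty acid amide hydrolase that breaks down endocannabinoids, had 48.7, 53.6 and 53.5 RPM in mut-16 at 25°C and 20.3, 22.6 and 25.7 RPM in mut-16 at 20°C, against 13.8, 16.96 and 16.97 RPM in wild-type at 25°C and 22.7, 18.3 and 18.7 RPM in wild-type at 20°C. It rose in mut-16 and fell in wild-type, with an interaction of 1.21 ± 0.24 (adjusted p = 9.24e-05). rab-3, a small GTPase of synaptic vesicles whose gene overlaps damt-1 on the other strand, had 8.42, 9.28 and 9.21 RPM in mut-16 at 25°C, while the libraries of the 3 other groups lay between 3.34 and 4.46 RPM (0.99 ± 0.26). unc-25, the enzyme that makes GABA, had an interaction of 0.98 ± 0.29. The 2 lower genes were tdc-1, a tyrosine decarboxylase (-0.65 ± 0.15), and ric-7, which acts in neuropeptide release and mitochondrial transport (-0.40 ± 0.12). With library totals, 19 of the 43 were higher and 1 was lower, and ric-7 no longer passed the test. Without library 1 of wild-type at 20°C, 7 were higher.

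Of 38 muscle genes, 9 were higher and 1 was lower, with a median 0.35 above that of all genes, against 19 higher and 0 lower with library totals. Their summed level was 8922, 8511 and 8534 RPM in mut-16 at 25°C and 5665, 6041 and 6282 RPM in mut-16 at 20°C, against 5285, 4997 and 5152 RPM in wild-type at 25°C and 6189, 4313 and 5343 RPM in wild-type at 20°C. Among called members with at least 10 RPM in some group, tni-3, a troponin I, had the largest interaction (0.89 ± 0.22), followed by unc-98, a protein of muscle attachment sites (0.56 ± 0.18). The myosin chaperone unc-45 was the lower gene (-0.44 ± 0.17). For myo-3, a myosin heavy chain of body wall muscle, means were 125 RPM in mut-16 at 25°C and 58.6 RPM in mut-16 at 20°C, against 59.9 RPM in wild-type at 25°C and 39.4 RPM in wild-type at 20°C. Its interaction of 0.19 did not pass the test (adjusted p = 0.655), and the 95% interval ran from -0.43 to 0.81. The 9 higher calls were 14 without library 3 of mut-16 at 20°C and 4 without library 1 of wild-type at 20°C.

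Early zygotic genes, which are transcribed first in embryos that adults carry, gave 9 higher and 0 lower calls of 35 tested (edgeR; 1 lower at an unadjusted p under 0.05 and 0 with DESeq2), with a median 0.87 above that of all genes and 11 higher and 0 lower calls with library totals. Their sum was 212, 223 and 216 RPM in mut-16 at 25°C and 100.4, 105.4 and 98.6 RPM in mut-16 at 20°C, against 139, 143 and 147 RPM in wild-type at 25°C and 118.6, 106.1 and 103 RPM in wild-type at 20°C. sdz-24 had 12.7, 12.2 and 12.1 RPM in mut-16 at 25°C and 3.83, 5.47 and 6.01 RPM in mut-16 at 20°C, against 2.17, 2.599 and 3.51 RPM in wild-type at 25°C and 6.11, 3.55 and 3.84 RPM in wild-type at 20°C (1.66 ± 0.40). vet-2 had an interaction of 0.77 ± 0.21. For 6 of the 35 tested genes, wild-type at 20°C had at most 3 counts in every library. The median interaction was 0.77 as fitted. Over the 30 genes with at most 1 group at this floor, and with the floor in place, it was 0.44. Over the 11 genes with at least 10 counts in every library it was 0.39. The number of embryos per animal was not counted in these samples.

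Families of transcription factors, detoxification enzymes and immune effectors also had more higher than lower calls. With TMM, 20.9% of nuclear hormone receptor, 20.1% of F-box, 19.7% of detoxification and 17.5% of innate immunity genes were called higher, against 9.7% of all genes. Lower calls made up 3.95%, 6.70%, 4.23% and 4.20% in that order, against 21.4% of all genes. Nuclear hormone receptors gave 37 higher and 7 lower calls of 177 with TMM and 88 and 3 with library totals (median 0.49 above all genes), with nhr-47 (0.73 ± 0.20) and nhr-69 (0.70 ± 0.20) among the higher ones and nhr-23, a regulator of molting (-0.68 ± 0.18), and nhr-86 (-0.52 ± 0.15) among the lower ones. Without library 1 or 3 of wild-type at 25°C the higher calls were 19 and 17, without library 1 of wild-type at 20°C they were 20, without library 2 of mut-16 at 20°C they were 22, and without library 2 or 3 of mut-16 at 25°C they were 21 and 23. F-box genes gave 36 higher and 12 lower calls of 179 with TMM and 62 and 4 with library totals (median 0.53 above all genes). Higher calls were 23 without library 1 of wild-type at 25°C and 20 without library 1 of wild-type at 20°C, and lower calls were 6 without library 3 of mut-16 at 20°C and 22 without library 2 of wild-type at 20°C. Examples are fbxa-64 (0.84 ± 0.25) and fbxa-72 (0.66 ± 0.17) on the higher side and fbxa-192 (-0.88 ± 0.20) and fbxa-106 (-0.62 ± 0.19) on the lower side. The related substrate adaptors with MATH and BTB domains gave 2 higher and 14 lower calls of 58 with TMM (24.1% lower, near the 21.4% of all genes) and 11 higher and 1 lower call with library totals. Their median was 0.06 below that of all genes. math-4 rose in mut-16 and fell in wild-type (1.00 ± 0.21). bath-13 had 21.96, 22.7 and 22.9 RPM in mut-16 at 25°C and 18.8, 20.1 and 18.4 RPM in mut-16 at 20°C, against 4.48, 6.04 and 5.73 RPM in wild-type at 25°C and 1.32, 1.64 and 0.929 RPM in wild-type at 20°C (-2.15 ± 0.38). bath-21 had an interaction of -0.72 ± 0.24, and it overlaps other genes on both strands.

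Detoxification enzymes gave 28 higher and 6 lower calls of 142 with TMM and 55 and 2 with library totals (median 0.36 above all genes). cyp-29A2 (0.96 ± 0.22) and ugt-2 (0.90 ± 0.27) were higher. The cytochrome P450 gene cyp-14A5 was lower, with 10.8, 9.96 and 9.80 RPM in mut-16 at 25°C and 4.69, 4.25 and 3.89 RPM in mut-16 at 20°C, against 18.3, 21.4 and 21.4 RPM in wild-type at 25°C and 4.66, 4.90 and 4.09 RPM in wild-type at 20°C (-1.22 ± 0.26). It rose in both genotypes, from levels at 20°C that overlapped. Another P450 gene, cyp-31A3, had an interaction of -0.67 ± 0.16. Without library 2 of mut-16 at 20°C or library 2 of wild-type at 25°C, 18 enzymes were higher.

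Innate immunity genes gave 25 higher and 6 lower calls of 143 with TMM, against 43 and 0 with library totals (median 0.43 above all genes). irg-4, an infection response gene, had 15.5, 18.6 and 18.5 RPM in mut-16 at 25°C and 4.69, 3.60 and 3.47 RPM in mut-16 at 20°C, against 11.5, 13.8 and 12.8 RPM in wild-type at 25°C and 8.02, 9.42 and 9.04 RPM in wild-type at 20°C (1.35 ± 0.28). The lectin gene clec-218 averaged 16.37 RPM in mut-16 at 25°C and 12.5 RPM in mut-16 at 20°C, against 9.67 RPM in wild-type at 25°C and 21.3 RPM in wild-type at 20°C, and it fell in wild-type while its mut-16 response (0.08, log2) did not pass the test (interaction 1.23 ± 0.29). clec-87 (-0.46 ± 0.13) and clec-88 (-0.30 ± 0.12) were called lower, and with library totals clec-88 was at 7.68e-05 and neither passed the test. Without library 3 of mut-16 at 20°C, 40 immunity genes were higher, and the 6 lower calls came to 2 or 3 without any one of 7 libraries, namely libraries 2 and 3 of mut-16 at 25°C, 3 of mut-16 at 20°C, 2 and 3 of wild-type at 25°C, and 2 and 3 of wild-type at 20°C.

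In lipid metabolism, 6 of 36 genes (16.7%, against 9.7% of all genes) were higher and 9 (25%, near the 21.4% of all genes) lower with TMM. With library totals, 14 were higher and 1 lower, and the median was 0.13 above that of all genes under either scaling. fat-7, a stearoyl-CoA desaturase, fell in both genotypes at 25°C, but less in mut-16. It had 24.1, 35.9 and 37.8 RPM in mut-16 at 25°C and 80.6, 130 and 125 RPM in mut-16 at 20°C, against 8.68, 9.84 and 11.0 RPM in wild-type at 25°C and 118.9, 87.2 and 109 RPM in wild-type at 20°C (1.35 ± 0.37). The carnitine palmitoyltransferase gene cpt-5 had an interaction of 0.91 ± 0.23, while cpt-1 (-0.60 ± 0.18) and the elongase gene elo-3 (-0.69 ± 0.26) were lower with TMM and did not pass the test with library totals. Of 20 intestinal genes, 1 was higher and 0 were lower (edgeR; 0 lower at an unadjusted p under 0.05 or with DESeq2), and with library totals 5 were higher and 0 lower. The gene called higher with TMM was the cathepsin B-like protease gene cpr-5 (0.61 ± 0.23), which fell less at 25°C in mut-16. In the lipid list, 10 were higher and 3 lower without library 3 of mut-16 at 20°C, and 4 or 5 were lower without library 2 or 3 of mut-16 at 25°C, library 3 of wild-type at 25°C or library 3 of wild-type at 20°C.

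**Figure D4:**
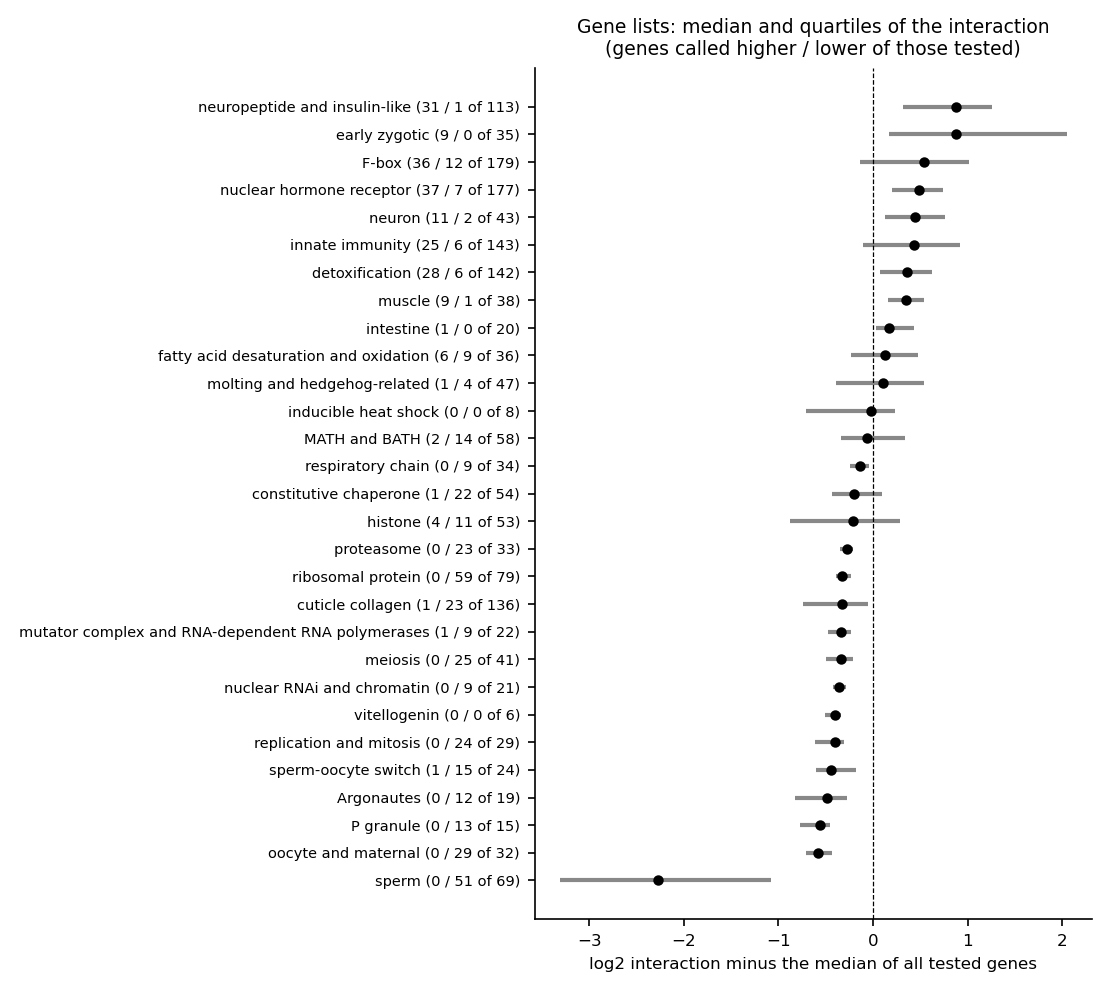
Median (points) and quartiles (bars) of the log2 interaction in each gene list with more than 1 gene tested, less the median of all tested genes (dashed line at 0), with counts of genes called higher and lower of those tested beside each name. Neuropeptide and early zygotic genes lie highest, at 0.87 above the median of all genes as fitted, and sperm genes lie lowest, at 2.28 below it. Over the 30 early zygotic genes with at most 1 group at a floor of 3 counts, the median interaction was 0.44 with this floor.

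Sperm genes had the largest differences in the other direction. Of 69 tested genes, 51 (73.9%) had a lower heat response in mut-16 and 0 a higher one (edgeR; 1 higher at an unadjusted p under 0.05 and 0 with DESeq2), against 44 lower and 1 higher with library totals, and the median was 2.28 below that of all genes with TMM and with totals. The median heat response was 0.36 in mut-16 and 3.18 in wild-type (log2), but the mutant was far above wild-type to begin with, by a median of 5.18 at 20°C. Summed over the list, sperm genes had 955, 1011 and 1013 RPM in mut-16 at 25°C and 665, 817 and 746 RPM in mut-16 at 20°C, against 327, 350.2 and 385 RPM in wild-type at 25°C and 197, 209.9 and 214 RPM in wild-type at 20°C. Every group was separate from the next, and 57 of the 69 genes had their highest mean level (RPM) in mut-16 at 25°C.

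On a linear scale the comparison rested on the library scaling. In RPM, which uses library totals, sperm genes gained 250.3 in mut-16 and 147 in wild-type, and as a ratio they rose 1.34-fold in mut-16 and 1.71-fold in wild-type. With TMM-scaled counts, the gain was 61.5 in mut-16 and 146 in wild-type (1.08-fold and 1.69-fold), per 1000000. Of the 51 genes called lower on the log2 scale, 38 had a positive difference of differences in RPM and 23 in TMM-scaled counts. Among all 3129 genes called lower, 429 did in RPM and 316 in TMM-scaled counts. For 16 sperm genes, wild-type at 20°C had at most 3 counts in every library, and with this floor in place of the fitted values the median over 64 genes was -2.32. With at least 10 counts required in every library, 13 sperm genes were left, 7 of them lower, with a median of -0.47.

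msp-152 (ZK546.6, chromosome II), which encodes a major sperm protein, the cytoskeletal protein of nematode sperm and the signal for oocyte maturation, had 15.5, 23.7 and 21.7 RPM in mut-16 at 25°C and 16.7, 23.9 and 22.3 RPM in mut-16 at 20°C, against 2.75, 3.29 and 3.48 RPM in wild-type at 25°C and 0.0809, 0.281 and 0.212 RPM in wild-type at 20°C. The mutant libraries overlapped between temperatures, and the wild-type libraries did not (-4.36 ± 0.74, edgeR adjusted p = 6.34e-06). ssq-2, of a sperm-specific family, had 28.4, 18.99 and 18.4 RPM in mut-16 at 25°C and 20.8, 29.0 and 24.9 RPM in mut-16 at 20°C, against 3.81, 5.91 and 6.80 RPM in wild-type at 25°C and 0.651, 0.485 and 0.413 RPM in wild-type at 20°C (-3.92 ± 0.74). The major sperm protein genes msp-33 (-3.93 ± 0.76), msp-64 (-3.92 ± 0.69) and msp-51 (-3.59 ± 0.65) and msd-2 (-4.13 ± 1.03), which overlaps another gene on its strand, had both mutant groups above both wild-type groups as well. msp-33 overlaps gst-9. msp genes are close copies of each other, and reads that match several copies may be divided among them.

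Several genes of this set had no more than 3 counts in any wild-type library at 20°C, so only limits can be given. nsph-4.1 had 16.02, 18.7 and 16.3 RPM in mut-16 at 25°C and 8.51, 9.82 and 8.40 RPM in mut-16 at 20°C, against 1.19, 2.12 and 3.69 RPM in wild-type at 25°C and 0, 0 and 0.0256 RPM in wild-type at 20°C. It was at least 15.8-fold higher at 25°C in wild-type, measured against a floor of 3 counts per library, and with this floor the interaction was -3.37 or lower. On the same floor the interaction was at most -1.22 for F11D11.3, -2.95 for F26B1.8, -2.48 for rmd-3 and -2.84 for mpst-6. The fitted values were -6.19, -6.09, -5.75, -4.47 and -3.90 in that order of genes and depend on the prior count. Among sperm-enriched genes that the study names, clp-8, C15H11.1 and F57F4.1 had means of 3.34, 2.45 and 4.19 RPM in mut-16 at 25°C and had wild-type at 20°C at the floor too. With the floor, their interactions were at most 0.03 for clp-8, 0.10 for C15H11.1 and -0.01 for F57F4.1. Such limits near 0 cannot tell a difference from none at this depth. The fit called C15H11.1 (-4.84) and F57F4.1 (-4.91) lower and not clp-8 (-1.45). F57F4.1 overlaps gfi-1 on the other strand.

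Markers of males were near 0. Of 9 genes expressed in male-specific neurons, 1 passed the filter, and their sum was 1.56, 1.64 and 1.78 RPM in mut-16 at 25°C and 0.479, 0.421 and 0.385 RPM in mut-16 at 20°C, against 0.646, 0.738 and 0.711 RPM in wild-type at 25°C and 0.301, 0.754 and 0.248 RPM in wild-type at 20°C. The part of males in the sperm gene values was not tested.

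The 250 bases before the annotated start of 4 of these genes, msp-152, msp-51, ssq-2 and mpst-6, are shown. Like other genes of this set, they kept a high level in mut-16 at both temperatures and were low in wild-type at 20°C. The region before hsp-16.48, a small heat shock gene that rose in both genotypes, is given as a contrast. Capitals in the first 4 mark AGATCTA and GATAAG, letters noticed in the sequences of these genes and then searched on both strands, and capitals in hsp-16.48 mark the paired heat shock half-sites GAANNTTC or TTCNNGAA. Of other genes of this set, msp-33 and msp-64 held both AGATCTA and GATAAG in this window, while nsph-4.1, F11D11.3, rmd-3 and msd-2 held neither. In the regions shown, the matches overlap in ssq-2 and in hsp-16.48. All are read 5′ to 3′ on the strand of the gene from the WBcel235 assembly, at chrII:4932777-4933026 (plus strand), chrIV:5295341-5295590 (minus), chrIV:4995892-4996141 (plus), chrIV:8566933-8567182 (plus) and chrV:9087881-9088130 (plus) in the order listed.
msp-152: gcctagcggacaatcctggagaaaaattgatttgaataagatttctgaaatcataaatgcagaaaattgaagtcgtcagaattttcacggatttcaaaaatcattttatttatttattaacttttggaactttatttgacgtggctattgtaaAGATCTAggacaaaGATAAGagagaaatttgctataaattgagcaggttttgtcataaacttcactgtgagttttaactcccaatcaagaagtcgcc
msp-51: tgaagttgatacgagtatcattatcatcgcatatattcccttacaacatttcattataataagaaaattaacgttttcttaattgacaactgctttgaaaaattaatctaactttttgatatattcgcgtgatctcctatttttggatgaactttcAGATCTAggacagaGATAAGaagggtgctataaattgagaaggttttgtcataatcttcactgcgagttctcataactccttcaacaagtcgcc
ssq-2: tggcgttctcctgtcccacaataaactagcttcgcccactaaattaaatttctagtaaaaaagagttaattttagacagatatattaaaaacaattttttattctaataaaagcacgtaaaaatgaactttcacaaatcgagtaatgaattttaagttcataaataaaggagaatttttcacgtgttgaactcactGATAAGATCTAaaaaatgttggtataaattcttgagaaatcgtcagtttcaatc
mpst-6: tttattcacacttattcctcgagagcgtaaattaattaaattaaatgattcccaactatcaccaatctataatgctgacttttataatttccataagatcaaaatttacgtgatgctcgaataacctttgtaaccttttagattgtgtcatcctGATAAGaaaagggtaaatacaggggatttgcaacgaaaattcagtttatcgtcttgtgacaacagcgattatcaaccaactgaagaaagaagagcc
hsp-16.48: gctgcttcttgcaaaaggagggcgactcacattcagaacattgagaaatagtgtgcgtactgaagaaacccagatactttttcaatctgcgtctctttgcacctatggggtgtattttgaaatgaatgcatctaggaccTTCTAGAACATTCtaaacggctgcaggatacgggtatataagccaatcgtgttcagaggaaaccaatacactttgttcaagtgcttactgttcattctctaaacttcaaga

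GATAAG was found in such a window before 32 of the 69 tested sperm genes (46.4%) and 30 of the 51 called lower (58.8%), against 14.7% of 19616 protein-coding genes. AGATCTA was found before 21 of the 69 (30.4%) and 20 of the 51 (39.2%), against 1.83%. GAANNTTC or TTCNNGAA was found before 28 of the 69 (40.6%) and 22 of the 51 (43.1%), against 27.01%. Because the letters were chosen from members of the list and msp genes are copies of each other, these shares describe the list and carry no test.

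Genes of the oocyte and of the embryo's maternal supply had smaller differences that were shared by nearly the whole list. Of 32 tested, 29 (90.6%) had a lower heat response in mut-16 and 0 a higher one, with a median 0.58 below that of all genes (edgeR; 0 higher at an unadjusted p under 0.05 and with DESeq2). With library totals, 19 were lower and 1 was higher. Their sum was 15393, 15044 and 15239 RPM in mut-16 at 25°C and 20812, 21123 and 21563 RPM in mut-16 at 20°C, against 20540, 20660 and 20333 RPM in wild-type at 25°C and 19853, 19728 and 22601 RPM in wild-type at 20°C. Only mut-16 at 25°C stood apart. lin-41, an RNA-binding protein that keeps oocytes from early differentiation, had 374, 277 and 276 RPM in mut-16 at 25°C and 597, 532 and 527 RPM in mut-16 at 20°C, against 505, 491 and 474 RPM in wild-type at 25°C and 467, 526 and 555 RPM in wild-type at 20°C (-1.06 ± 0.24, adjusted p = 0.000706). cbd-1, a chitin-binding protein of the eggshell's outer layer, had an interaction of -1.01 ± 0.23.

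**Figure D5:**
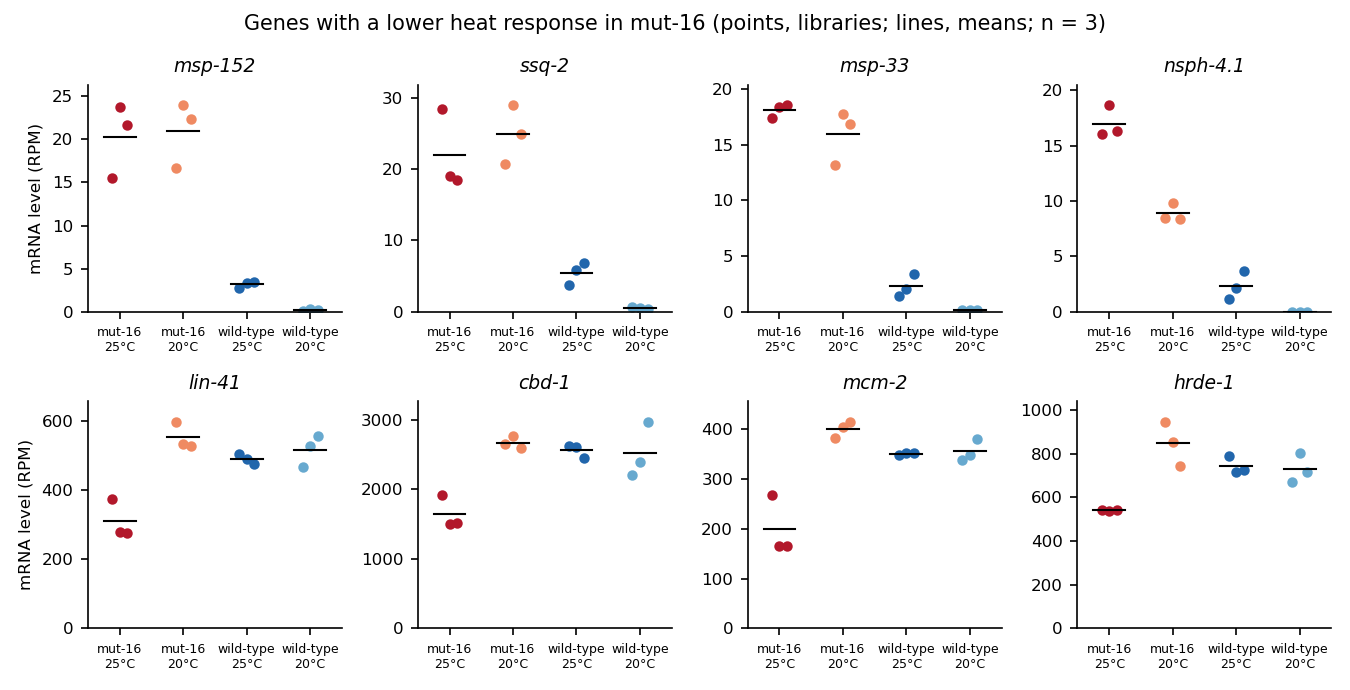
mRNA level in RPM (linear axes from 0) of 8 genes with a lower heat response in mut-16, with 1 point per library, a line at each group mean and 3 libraries per group. In the upper row (sperm genes and nsph-4.1) both mutant groups lie above both wild-type groups, while in the lower row (lin-41, cbd-1, mcm-2, hrde-1) only mut-16 at 25°C lies below the rest.

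Lists of germline small RNA pathway genes, the pathway in which MUT-16 acts, also had medians below that of all genes with TMM. Of 19 Argonaute genes, 12 (63.2%, against 21.4% of all genes) were lower and 0 higher (edgeR; 1 higher at an unadjusted p under 0.05 and 1 with DESeq2). Their median was 0.49 below that of all genes. With library totals, 7 were lower (36.8%, against 6.07%) and 1 higher. Of the 12, 2 had a positive difference of differences in RPM and 2 in TMM-scaled counts. In RPM, 6 of the 19 had their highest mean in mut-16 at 25°C. For 1 of the 19, wild-type at 20°C had at most 3 counts in every library. hrde-1, the germline nuclear Argonaute, had 544, 539 and 540.2 RPM in mut-16 at 25°C and 946, 851 and 743 RPM in mut-16 at 20°C, against 789, 718 and 726 RPM in wild-type at 25°C and 672, 805 and 714 RPM in wild-type at 20°C (-0.97 ± 0.21). ppw-2, a secondary Argonaute, averaged 176 RPM in mut-16 at 25°C and 191 RPM in mut-16 at 20°C, against 258 RPM in wild-type at 25°C and 160 RPM in wild-type at 20°C, and it fell in mut-16 and rose in wild-type (-1.10 ± 0.21). P granule genes gave 13 lower (86.7%) and 0 higher calls of 15 (edgeR; 0 higher at an unadjusted p under 0.05 or with DESeq2), with a median 0.56 below that of all genes. With library totals, 6 were lower (40%, against 6.07% of all genes). pgl-1, a P granule core protein, had 441, 409 and 416 RPM in mut-16 at 25°C and 519.7, 501 and 469 RPM in mut-16 at 20°C, against 631, 620 and 635 RPM in wild-type at 25°C and 489, 525 and 534 RPM in wild-type at 20°C (-0.81 ± 0.17). The RNA helicase genes cgh-1 (-0.95 ± 0.22) and glh-2 (-0.95 ± 0.25) fell in mut-16 and differed little between temperatures in wild-type.

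Among 22 genes of the Mutator complex and its RNA-dependent RNA polymerases, 9 (40.9%, against 21.4% of all genes) were lower and 1 was higher. With library totals, only 1 was lower (4.55%, below the 6.07% of all genes) and 1 higher. rde-12, a helicase that acts with secondary Argonautes, had an interaction of -0.95 ± 0.24. ekl-1, a Tudor domain partner of the polymerases, had -0.61 ± 0.16 and did not pass the test with library totals. Nuclear RNAi and chromatin genes gave 9 lower calls of 21 with TMM (42.9%; 8 with DESeq2), with a median 0.36 below that of all genes. With library totals, 0 were lower (edgeR), against 6.07% of all genes. The named ones, the histone demethylase genes jmjd-2 (-0.72 ± 0.29) and spr-5 (-0.59 ± 0.19), passed with TMM and not with library totals. Without library 2 of wild-type at 20°C, 15 Mutator and 16 nuclear RNAi genes were lower.

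Meiosis and cell division followed the oocyte genes. Of 41 meiosis genes, 25 were lower with TMM (61.0%, against 21.4% of all genes) and 5 with library totals (12.2%, against 6.07%). Their median was 0.34 below that of all genes. rec-8, the meiotic cohesin, had an interaction of -0.82 ± 0.20, and htp-3, a protein of the chromosome axis, -0.73 ± 0.17. Of 29 genes of replication and mitosis, 24 (82.8%) were lower with TMM and 11 (37.9%) with library totals. mcm-2, a subunit of the replicative helicase, had 268, 166 and 165 RPM in mut-16 at 25°C and 384, 404 and 416 RPM in mut-16 at 20°C, against 348, 353 and 354 RPM in wild-type at 25°C and 338, 349 and 381 RPM in wild-type at 20°C (-1.28 ± 0.31). top-2, a type II topoisomerase, had -1.10 ± 0.25. Among 24 genes of the switch between sperm and oocyte fate, 15 (62.5%) were lower and 1 higher with TMM. With library totals, 8 (33.3%) were lower and 1 higher. cpb-1, an RNA-binding protein needed for spermatogenesis, had -1.01 ± 0.19, nos-3, a Nanos protein, had -0.74 ± 0.19, and tra-3, which promotes female fate, was the higher gene (0.32 ± 0.13).

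Abundant genes of protein synthesis and turnover lay close together. Of 79 ribosomal protein genes, 59 (74.7%, against 21.4% of all genes) were lower and 0 higher with TMM (edgeR; 0 higher at an unadjusted p under 0.05 or with DESeq2). With library totals, 4 were lower (5.06%, below the 6.07% of all genes) and 2 higher. Their median was 0.33 below that of all genes. rpl-11.1 (-0.67 ± 0.15) and rps-21 (-0.64 ± 0.17) were examples, and rps-21 did not pass the test with library totals. Of 33 proteasome genes, 23 (69.7%) were lower with TMM, the subunit genes rpn-1 (-0.84 ± 0.19) and rpn-2 (-0.78 ± 0.17) among the larger. With library totals, 2 were lower (6.06%, the same share as the 6.07% of all genes). Of 34 respiratory chain genes, 9 (26.5%, against 21.4% of all genes) were lower with TMM and 2 (5.88%, against 6.07%) with totals, including nuo-5 (-0.77 ± 0.20) and ucr-2.3 (-0.77 ± 0.18). Histone genes gave 11 lower and 4 higher calls of 53 with TMM (20.8% and 7.55%, close to the 21.4% and 9.7% of all genes), and 2 lower and 6 higher with library totals. his-63 (-1.11 ± 0.38) and his-61 (-1.10 ± 0.41) did not pass with totals, and histone genes share near-identical sequences. Without library 3 of mut-16 at 20°C, 19 ribosomal, 12 proteasome, 5 respiratory chain and 6 histone genes were lower, and without library 2 or 3 of mut-16 at 25°C 7 histone genes were.

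Heat shock genes were divided into an inducible and a constitutive list. Of the 8 inducible genes, 0 were called in either direction by edgeR or DESeq2, and 0 had an unadjusted p under 0.05. Their summed level was 176, 177 and 168 RPM in mut-16 at 25°C and 11.6, 11.9 and 13.2 RPM in mut-16 at 20°C, against 91.1, 100.8 and 111 RPM in wild-type at 25°C and 8.27, 9.05 and 5.78 RPM in wild-type at 20°C. The ratio was 14.2-fold in mut-16 and 13.1-fold in wild-type in RPM, and 11.4-fold and 12.95-fold in TMM-scaled counts. hsp-16.48 had 82.7, 89.3 and 81.1 RPM in mut-16 at 25°C and 5.26, 5.28 and 5.93 RPM in mut-16 at 20°C, against 47.4, 53.6 and 57.5 RPM in wild-type at 25°C and 3.86, 4.09 and 2.81 RPM in wild-type at 20°C. Its interaction was -0.25 with a 95% interval from -0.60 to 0.10. hsp-16.48 and hsp-16.1 each have a near-identical copy in the genome, and reads may be divided between copies.

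Of 54 constitutive chaperone genes, 22 (40.7%, against 21.4% of all genes) were lower and 1 higher with TMM. With library totals, 9 were lower (16.7%, against 6.07%) and 10 higher (18.5%, against 21.6%). The median was 0.20 below that of all genes. hsp-1, the constitutive HSP70, averaged 2751 RPM in mut-16 at 25°C and 3864 RPM in mut-16 at 20°C, against 3394 RPM in wild-type at 25°C and 3248 RPM in wild-type at 20°C (-0.85 ± 0.18). sip-1, a small heat shock protein of oocytes and embryos, had -0.83 ± 0.20. dnj-14, a chaperone of synaptic vesicles, was the higher gene, with 53.5, 51.05 and 51.1 RPM in mut-16 at 25°C and 20.6, 20.0 and 26.0 RPM in mut-16 at 20°C, against 21.5, 23.1 and 22.1 RPM in wild-type at 25°C and 23.7, 23.8 and 24.4 RPM in wild-type at 20°C (1.04 ± 0.22).

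Cuticle collagens rose at 25°C in both genotypes. Their sum was 37681, 39149 and 40548 RPM in mut-16 at 25°C and 16218, 18937 and 20019 RPM in mut-16 at 20°C, against 17106, 19380 and 20566 RPM in wild-type at 25°C and 9820, 7737 and 9347 RPM in wild-type at 20°C. The ratio was 2.13 in mut-16 and 2.12 in wild-type in RPM, and 1.71 and 2.097 in TMM-scaled counts. The median interaction was 0.33 below that of all genes. Of 136 genes tested, 23 were lower (16.9%, against 21.4% of all genes) and 1 higher (0.735%, against 9.7%) with TMM. With library totals, 5 were lower (3.68%, against 6.07%) and 4 higher (2.94%, against 21.6%). The share of lower calls was thus below that of all genes under both scalings. With TMM, the lower calls were 14 without library 2 of mut-16 at 25°C, 11 without library 3 of mut-16 at 20°C and 13 without library 3 of wild-type at 25°C. col-133 averaged 34.0 RPM in mut-16 at 25°C and 20.3 RPM in mut-16 at 20°C, against 2.79 RPM in wild-type at 25°C and 0.809 RPM in wild-type at 20°C (-1.39 ± 0.34), and col-168, with wild-type at 20°C at the floor, had an interaction of at most -1.63 (fitted -3.09). In the molting and hedgehog-related list, 4 of 47 were lower (8.51%, against 21.4% of all genes) and 1 higher (2.13%, against 9.7%) with TMM. With library totals, 2 were lower and 4 higher (median 0.10 above all genes), and grd-10 (-1.27 ± 0.44) and mlt-7 (-0.50 ± 0.18) did not pass.

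For the 6 vitellogenin genes, which encode yolk proteins made in the intestine, the result turned on 1 library. Their sum was 48908, 29470 and 29985 RPM in mut-16 at 25°C and 54269, 49672 and 41191 RPM in mut-16 at 20°C, against 54495, 45857 and 45568 RPM in wild-type at 25°C and 55270, 50558 and 58297 RPM in wild-type at 20°C. Library 1 of mut-16 at 25°C overlapped the other groups and libraries 2 and 3 did not. With all libraries, 0 of the 6 were called (edgeR; 2 lower at an unadjusted p under 0.05 and 1 with DESeq2), and without that library all 6 were lower. vit-5 had the smallest adjusted p with all libraries (0.0587), with an interaction of -0.64 ± 0.27.

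A change of direction between the genotypes was rarer than a change of size. In 84 genes (0.574% of those tested) the level was higher at 25°C in mut-16 and lower in wild-type, and in 129 genes (0.882%) the reverse, both at an adjusted p under 0.05 for each genotype. The total of 213 was 127 without library 1 of wild-type at 20°C, 137 without library 1 of wild-type at 25°C and 133 without library 3 of wild-type at 25°C. sdz-24, nspc-20 (1.40 ± 0.36) and Y94H6A.10 had the largest interactions of the first kind. Y94H6A.10 had 53.7, 54.9 and 55.3 RPM in mut-16 at 25°C and 29.1, 26.6 and 23.8 RPM in mut-16 at 20°C, against 17.3, 19.9 and 20.2 RPM in wild-type at 25°C and 32.8, 33.9 and 20.3 RPM in wild-type at 20°C (1.34 ± 0.31). msp-152, ssq-2 and msp-51 had the largest of the second kind, with small falls in mut-16 under TMM (-0.35, -0.50 and -0.38 on the log2 scale) and rises of 4.01, 3.41 and 3.21 in wild-type. Among the genes named here, faah-1, nos-3, mcm-2, sdz-24, tni-3, unc-98, tdc-1, ric-7, dnj-14, nuo-5, ucr-2.3, nhr-47, nhr-69, nhr-86, clec-87 and elo-3 overlap a gene on the other strand and clec-88 one on its own strand, so their values may include reads of the neighbour.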

How the data were processed

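Per the labels and the study's methods, the authors trimmed reads with Cutadapt and quantified them with Salmon against WS258 gene models (versions and strand setting not given in the sources used here). The deposited values are expected counts, which were rounded, and entries of 1060 gene names with more than 1 entry were summed. Genes were tested with edgeR 4.0.16 in R 4.3.3 (robust quasi-likelihood, TMM, its filter on low counts, 12 libraries of 1 assay in a fit, Benjamini-Hochberg adjustment over all genes tested). Standard errors were derived from the log2 value and its p-value. Genes were named if the study names them, as the 10 largest called per direction with at least 10 RPM that passed without any 1 library, as up to 2 per list and direction, or as the 3 largest opposite responses per direction. Members and lists were chosen with earlier results of these data known. Alternatives were DESeq2 1.42.0, library totals, 2 filters, a replicate block, a mark in library titles as covariate, other thresholds and each library left out. In simulated data, the mRNA fit called 49 of 50 genes raised 3-fold, 1 of 50 raised 1.5-fold and 6 of 13837 unchanged genes. It also called 45 of 50 genes set to 0.333-fold and 3 of 50 set to 0.667-fold. Raised and lowered genes were equal in number there. Whether these rates hold for the real libraries, with 1418 genes called higher and 3129 lower, was not tested. The other 12 samples of the series were not used here.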

Additional observations from a re-analysis of the deposited data

Results flagged for a closer look

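The heat response differed between the genotypes, by the test of the interaction itself (edgeR, adjusted p under 0.05), in 1418 genes with a higher and 3129 with a lower response in mut-16. The values below are log2 interactions of the named genes that passed it, with no explanation weighed.

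Among the largest higher responses, F47B7.6 had 5.26, R09H3.3 3.20, Y73B3A.1 2.62, AC8.1 2.59, glit-1 2.57, F41G4.7 2.42, pdfr-1 2.15, Y73B3A.4 2.00, K02E7.6 1.92 and T08D2.8 1.85. At the left end of X, and chosen after their values were seen, chkr-1 had 3.25, set-28 3.06, T08D2.6 2.83 and Y73B3B.5 1.73, and on chromosome I eri-7 had 1.42. In mut-16 at 20°C, chkr-1, set-28 and T08D2.6 averaged only 0.121, 0.0885 and 0.366 RPM, so their fitted values rest on few reads. These genes stayed under 10 RPM in every group. Among neuronal, peptide and muscle genes, nlp-49 had 1.31, faah-1 1.21, flp-9 1.18, dnj-14 1.04, rab-3 0.99, unc-25 0.98, tni-3 0.89 and unc-98 0.56, while unc-45 had -0.44, tdc-1 -0.65 and ric-7 -0.40. Other higher genes were sdz-24 at 1.66, nspc-20 at 1.40, irg-4 at 1.35, fat-7 at 1.35, Y94H6A.10 at 1.34, clec-218 at 1.23, math-4 at 1.00, cyp-29A2 at 0.96, cpt-5 at 0.91, ugt-2 at 0.90, fbxa-64 at 0.84, vet-2 at 0.77, nhr-47 at 0.73, nhr-69 at 0.70, fbxa-72 at 0.66, cpr-5 at 0.61 and tra-3 at 0.32.

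Among sperm and related genes with lower responses, nsph-4.1 had -6.19, F11D11.3 -6.09, F26B1.8 -5.75, F57F4.1 -4.91, C15H11.1 -4.84, rmd-3 -4.47, msp-152 -4.36, msd-2 -4.13, msp-33 -3.93, msp-64 -3.92, ssq-2 -3.92, mpst-6 -3.90 and msp-51 -3.59. Wild-type at 20°C was at the floor of 3 counts for nsph-4.1, F11D11.3, F26B1.8, F57F4.1, C15H11.1, rmd-3 and mpst-6, so these fitted values are not bounds. With the floor, the interaction was at most -0.01 for F57F4.1 and 0.10 for C15H11.1, limits that cannot tell a difference from none at this depth. F57F4.1 also did not pass the test with library totals (edgeR, adjusted p = 0.0636). Among germline genes, mcm-2 had -1.28, ppw-2 -1.10, top-2 -1.10, lin-41 -1.06, cbd-1 -1.01, cpb-1 -1.01, hrde-1 -0.97, cgh-1 -0.95, glh-2 -0.95, rde-12 -0.95, rec-8 -0.82, pgl-1 -0.81, nos-3 -0.74, htp-3 -0.73, jmjd-2 -0.72, ekl-1 -0.61 and spr-5 -0.59. Among genes of protein synthesis, turnover, respiration and chromatin, his-63 had -1.11, his-61 -1.10, hsp-1 -0.85, rpn-1 -0.84, sip-1 -0.83, rpn-2 -0.78, nuo-5 -0.77, ucr-2.3 -0.77, rpl-11.1 -0.67 and rps-21 -0.64. Other lower genes were col-168 at -3.09 (at most -1.63 with the floor), bath-13 at -2.15, col-133 at -1.39, grd-10 at -1.27, cyp-14A5 at -1.22, fbxa-192 at -0.88, bath-21 at -0.72, elo-3 at -0.69, nhr-23 at -0.68, cyp-31A3 at -0.67, fbxa-106 at -0.62, cpt-1 at -0.60, nhr-86 at -0.52, mlt-7 at -0.50, clec-87 at -0.46 and clec-88 at -0.30.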

How the results depend on the processing

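Scaling by library totals gave 3155 higher and 888 lower genes, and a minimum of 10 counts in every library gave 2242 and 1055. An adjusted p under 0.01 gave 527 higher, 1445 lower and 65 opposite responses, and an absolute log2 of at least 1 gave 566, 569 and 7. Leaving out each library gave 878 to 2312 higher, 2309 to 3899 lower and 127 to 283 opposite responses, and shares of higher genes with fewer small RNAs in mut-16 of 66.8% to 74.0%. The cause of these movements was not tested. DESeq2 gave 1523 higher and 2749 lower genes, and no filter 1512 and 2309. The interaction of clec-88 came to 7.68e-05 with library totals. With the replicate block, 1365 genes were higher and 3165 lower, with 200 opposite responses. The labels do not say whether same-numbered libraries were handled together. The correlation of their deviations ran from -0.08 to 0.19 and was over 0.1 in 4 of 18 pairs, which does not decide it. Replicate numbers were therefore not used as pairs in the main fit. For the 116 genes examined by name, 2039 values under an alternative kept direction and call, 118 lost the call, 16 gained it and 1 changed sign. Wild-type at 20°C was at or under 3 counts in every library for 177 of the genes called lower, whose fitted values are not bounds. Of the genes called higher, 15 had mut-16 at 20°C at this floor, 17 had wild-type at 25°C and 11 had wild-type at 20°C.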
